A study of Drosophila melanogaster with 24 samples.

Results

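Oxidative phosphorylation subunit genes are the nuclear genes that encode the parts of respiratory complexes I, III and IV and of ATP synthase, complex V. They were chosen by symbol alone, as protein-coding genes named with ND-, UQCR-, ATPsyn or COX followed by a digit from 4 to 8. The rule found 80 of the 13922 protein-coding genes on the main chromosome arms, with 40 in complex I, 9 in complex III, 16 in complex IV and 15 in complex V. Of the 80, 59 were main subunit genes and 21 were copies, whose symbol is that of another subunit gene with an L added. Of the copies, 17 have their main gene among the members. The other 4 (COX6AL, COX6AL2, COX6CL and ATPsynepsilonL) are copies of levy, cype and sun and were added to the class after their symbols and values had been seen.

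Complex I takes electrons from NADH and complex III from ubiquinol, complex IV passes them to oxygen, and ATP synthase uses the proton gradient that the 3 build up to make ATP. Most subunits of these complexes are encoded in the nucleus, outside the mitochondrial genome, so their genes lie in nuclear chromatin, where insulator proteins bind. Insulator proteins hold neighbouring regulatory regions or chromatin domains apart. In flies several subunit genes have duplicates, many of them known for expression in the testis.

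The members were marked from ChIP-seq (sequencing of immunoprecipitated chromatin) in Kc167, a female Drosophila melanogaster cell line that came from embryos. In the knockdown cells Isha was targeted with 12 µg of double-stranded RNA and 5 days of incubation, and the others were mock treated. Each treatment was precipitated with antisera against Isha, CP190, Su(Hw) and Mod(mdg4)67.2 and sequenced beside its inputs, 24 libraries in all with 2 in each group. Su(Hw) is the zinc finger protein of the gypsy insulator, CP190 and Mod(mdg4) are its partners, and the study asked where Isha lies relative to them and whether they need it. The 2 Isha libraries of each treatment used different antisera, Rb95 and Rb96, and nothing states whether replicates were separate cultures.

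What could be read for each gene is the presence and position of a called peak. The 8 lists, 1 for each antibody and treatment, hold positions in dm6 without height, depth or replicate, so no difference between treatments has a replicate check and no p-value is given. A peak missing from a list can be one that did not reach the authors' threshold. On the main arms there were 932 peaks in the knockdown list of Isha, 8880 in that of CP190, 4711 in that of Su(Hw) and 1091 in that of Mod(mdg4), against 4735, 8193, 4900 and 1305 in their mock lists. No RNA was measured, so the level of the members and the markers of the cell line could not be checked. Intervals are 95% Wilson intervals and cover counting error only, and since neighbouring genes can share a peak, genes are not independent of each other.

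Isha and CP190 lay at most of the subunit genes in mock cells, and Su(Hw) and Mod(mdg4) at few. A gene is counted when a peak reaches within 1 kb of its span. Isha was near 23 of the 80 genes after knockdown (28.8%, 20.0 to 39.5%), against 14.8% of all protein-coding genes. In mock cells it was near 62 (77.5%, 67.2 to 85.3%), against 49.7% of all genes. The subunit genes thus had Isha more often than protein-coding genes as a whole in each treatment.

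CP190 was near 61 of the 80 genes after knockdown (76.2%, 65.9 to 84.2%), against 63% of all protein-coding genes, and near 58 in mock cells (72.5%, 61.9 to 81.1%), against 61%. Both Isha and CP190 were near 55 of the 80 in mock cells (68.8%), against 41.8% of all genes. Su(Hw) was near 6 genes after knockdown (7.5%, 3.48 to 15.4%), against 20.9% of all genes, and near 9 in mock cells (11.2%), against 22.6%. Mod(mdg4) was near 2 genes after knockdown, against 7.71% of all genes, and near 1 in mock cells, against 8.23%. Su(Hw) and Mod(mdg4) were therefore no more common at the subunit genes than elsewhere.

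**Figure D1:**
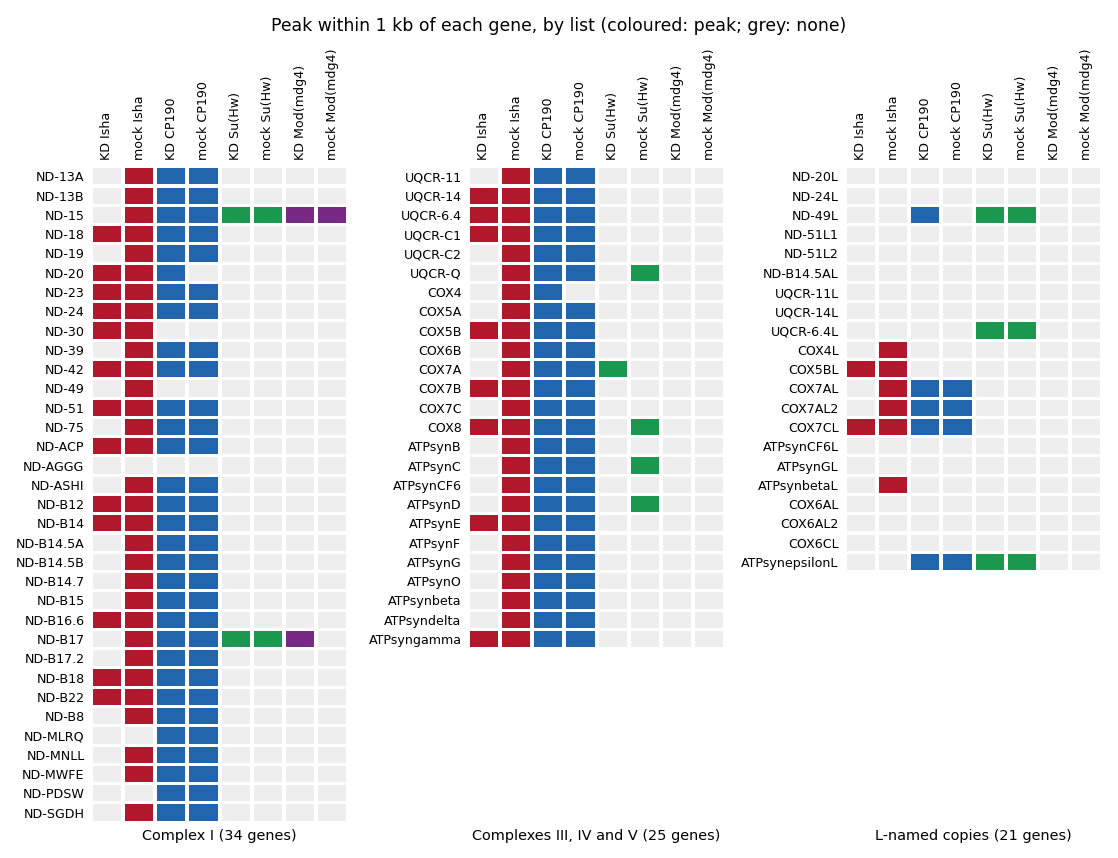
Each row is 1 gene and each column 1 peak list, with a knockdown list (KD) left of its mock list; a coloured cell marks a peak within 1 kb of the gene and a grey cell none. The mock Isha and CP190 columns are filled for nearly all of the 59 main subunit genes on the left and in the middle, with 56 and 54 marks, and mostly empty for the 21 copies on the right, with 6 and 4.

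Subunit genes are short, and short genes are reached by fewer peaks. The main subunit genes had a median span of 1178 bp and the copies one of 703 bp, against 2163 bp for all protein-coding genes. All genes were therefore weighted to the same lengths, in 10 equal bins of span. Genes of the lengths of the 80 members had a peak in the knockdown lists in 12.8% of cases for Isha, 52.6% for CP190, 14.3% for Su(Hw) and 4.83% for Mod(mdg4). In the mock lists they did in 41.8% of cases for Isha, 51.3% for CP190, 16.0% for Su(Hw) and 5.36% for Mod(mdg4). Beside genes of like length, the share with Isha or CP190 was higher at the members and the share with Su(Hw) or Mod(mdg4) was not.

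The 59 main subunit genes accounted for nearly all of the Isha and CP190 marks. Isha was near 21 of them after knockdown (35.6%, 24.6 to 48.3%), against 13.5% for genes of like length, and near 56 in mock cells (94.9%, 86.1 to 98.3%), against 44.6%. CP190 was near 56 after knockdown (94.9%), against 54.9%, and near 54 in mock cells (91.5%, 81.6 to 96.3%), against 53.3%. Weighting by the gap to the nearest gene as well as by length raised the mock comparison values to 49.6% for Isha and 55.9% for CP190, below both intervals. In mock cells 52 main subunit genes had both proteins, 4 had Isha without CP190, 2 had CP190 without Isha and 1 had neither. Over all genes these shares were 41.8%, 7.94%, 19.2% and 31.1%.

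The 21 copies did not share this pattern. Isha was near 2 of them after knockdown, against 11.0% for genes of like length. In mock cells it was near 6 (28.6%, 13.8 to 50.0%), against 34.1%, which lies inside the interval. CP190 was near 5 copies after knockdown, against 46.0%. In mock cells it was near 4 (19%, 7.67 to 40.0%), against 45.4%, which lies above the interval. In mock cells 14 copies had neither protein (66.7%), against 31.1% of all genes, not weighted to length. In addition, 12 copies had no peak in any of the 8 lists, against 1 of the main subunit genes. That state was not counted over all genes.

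With the copies taken as the 17 whose main gene is a member, and the other 63 members counted as main genes, mock Isha was near 88.9% of the main genes and 35.3% of the copies. The difference was 53.6 points (Newcombe interval 28.1 to 72.4). With all 21 as copies it was 66.3 points (43.2 to 81.5). Gene and copy were marked from the same lists, so the difference does not rest on a comparison between libraries.

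**Figure D2:**
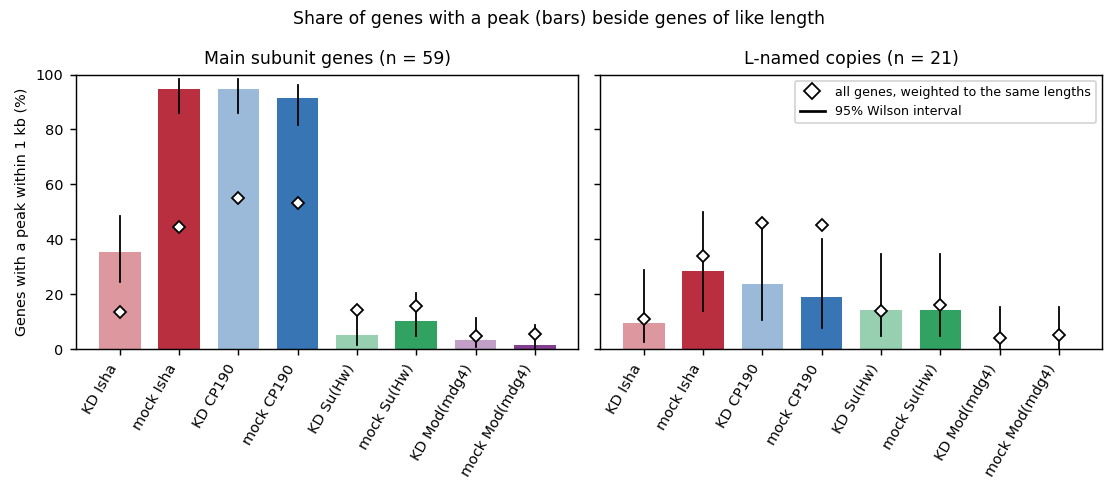
Bars give the share of genes (%) with a peak within 1 kb, for the 59 main subunit genes on the left and the 21 copies on the right, with knockdown (KD) left of mock; lines are 95% Wilson intervals and diamonds are all protein-coding genes weighted to the same lengths. For the main subunit genes the mock Isha bar stands at 94.9% with its diamond at 44.6%, while for the copies it stands at 28.6% with its diamond at 34.1%.

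These counts assign a peak to every gene within reach, and the genes around the members are dense. The main subunit genes lay a median of 4 bp from the next gene, the copies 0 bp and all genes 59 bp. A main subunit gene with mock Isha shared the peaks with a median of 2 other genes, at most 5, and in 1 gene a peak reached no other. When each peak was given only to the gene nearest its midpoint, mock Isha was at 35 main subunit genes and 1 copy, 36 in all, against 28.9% of all genes. For mock CP190 that count was 35 of the 59 main subunit genes and 2 of the 21 copies, 37 of the 80 members, against 37.2% of all genes. These counts have no interval and no weighting to length, so no excess is read from them. Which gene of a cluster a peak belongs to cannot be told apart from positions alone.

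Of the 34 main genes of complex I, 13 had Isha and 31 had CP190 after knockdown, against 31 with Isha and 30 with CP190 in mock cells. Genes of like length had Isha in 13.2% of cases and CP190 in 54.8% after knockdown, against 43.9% and 53.3% in mock cells. The genes of its 7 nuclear core subunits, among them those that carry the flavin and the iron-sulphur clusters (ND-75, ND-51, ND-24, ND-49, ND-30, ND-23 and ND-20), all had mock Isha. So did the genes of 24 accessory subunits, among them the acyl carrier protein gene ND-ACP, with a peak of 6017 bp. Mock CP190 was near 4 of the 7 core genes (57.1%, 25.0 to 84.2%), against 58.3% for genes of like length. It was near 26 of the 27 accessory genes, against 52.0%. The widest peak in complex I lay over ND-18, an accessory subunit gene on X (19492421 to 19493337). It ran from 19490339 to 19496639 after knockdown and from 19490425 to 19497299, or 6875 bp, in mock cells. Like the widest mock Isha peak of each other complex, it was centred nearer to another gene than to the subunit gene.

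The 3 main subunit genes without mock Isha were all accessory subunits of complex I. ND-AGGG (3L, 24976254 to 24977118) had no peak in any list, and its nearest mock Isha peak was 88985 bp away. ND-MLRQ (3L, 23339326 to 23345936) was 33788 bp from one and had CP190 alone, at 23337704 to 23338563 and 23338915 to 23339639 after knockdown and at 23337196 to 23339861 in mock cells. ND-PDSW (2L, 3466157 to 3467334) was 8840 bp from one and also had CP190 alone, at 3465720 to 3466807 after knockdown and 3465643 to 3466903 in mock cells. These genes were therefore not near misses of the 1 kb limit. ND-AGGG also stood alone among genes, with 48544 bp to the next.

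All 6 main genes of complex III had Isha and CP190 in mock cells, against 44.4% and 52.3% for genes of like length. The widest mock Isha peak of any main subunit gene, 7072 bp, lay over UQCR-C2, a gene for a core protein of the complex (3L, 16578832 to 16585903), with a further peak at 16586136 to 16589904. No Isha peak reached within 1 kb of UQCR-C2 after knockdown. UQCR-11 was reached only from outside, by a peak of 1091 bp that ended 510 bp from its span.

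Complex IV had Isha at all 8 main genes and CP190 at 7 in mock cells, the exception being COX4, the gene of a subunit that contacts the mitochondrially encoded core. Genes of like length had mock Isha in 44.2% of cases and mock CP190 in 52.2%. The widest mock Isha peak covered COX7B (3L, 17424392 to 17430532, 6141 bp), and a narrower one at 17424393 to 17425516 was called there after knockdown. The next was over COX6B, with 5183 bp.

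Complex V had Isha and CP190 at all 11 main genes in mock cells, against 47.1% and 55.0% for genes of like length. They included ATPsynbeta, which encodes the catalytic subunit, ATPsyngamma, the rotating shaft, ATPsynC, the membrane ring, and ATPsynO, ATPsynB, ATPsynD and ATPsynCF6 of the peripheral stalk. The widest Isha peak was at ATPsynG (2L, 10974553 to 10978873, 4321 bp), and that gene had no Isha peak within 1 kb after knockdown. ATPsynO had 3 mock Isha peaks, and ATPsynbeta on chromosome 4 was reached from outside, at a distance of 268 bp.

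Isha peaks at the main subunit genes often covered the whole gene. The widest mock Isha peak per gene had a median of 2503 bp at the main subunit genes, against 2270 bp at all genes with mock Isha, so their width was largely that of other genes with Isha. Peak by peak, the 78 mock Isha peaks near main subunit genes had a median width of 2348 bp, against 1535 bp for all mock Isha peaks, which include peaks away from genes. The 22 near them after knockdown had a median of 1846.5 bp, against 1676 bp. CP190 peaks near main subunit genes were not wider than the rest of their lists, with a median of 1085 bp after knockdown, against 1130 bp in the whole list, and 1344 bp in mock cells, against 1410 bp. Median widths of the widest mock Isha peak per gene were alike across complexes, at 2432 bp in complex I, 2558 bp in III, 2715 bp in IV and 2564 bp in V.

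Of the 56 main subunit genes with mock Isha, 53 had a peak on the span and 3 only within 1 kb (ND-B8, UQCR-11 and ATPsynbeta). A median of 96.4% of the span was under mock Isha, against 38.2% for all genes with mock Isha, not matched on length. In 26 genes the whole span was covered, among them ND-B15, the shortest main subunit gene at 557 bp. CP190 covered a median of 50.5% of the span of the 54 genes that had it. The midpoint of a mock Isha peak lay inside 31 of the 56 genes, and that of a CP190 peak inside 19 of the 54.

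Isha and CP190 midpoints were compared where a CP190 peak was centred within 500 bp of a gene end. The nearest Isha peak lay further in the direction of the gene at 27 of 44 main subunit genes (61.4%, 46.6 to 74.3%). The median shift was 177 bp, and a shift could pass the other gene end, as at ND-18 and COX7B. Among all genes with such a pair the share was 57.7% of 4747, and among those of like length 59.7% of 2689, with shifts of 112 and 136.5 bp. Both values lie inside the interval, so the shift at the subunit genes did not stand out. In mock cells 68 of the 78 Isha peaks near main subunit genes overlapped a CP190 peak (87.2%, 78.0 to 92.9%), against 67% of all mock Isha peaks. With Su(Hw) 5 overlapped (6.41%, against 7.18% of all), and with Mod(mdg4) 0. These overlap shares are not matched on width, and the 78 peaks were wider than the whole list, with medians of 2348 and 1535 bp. How much of the higher CP190 share goes with width was not tested.

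**Figure D3:**
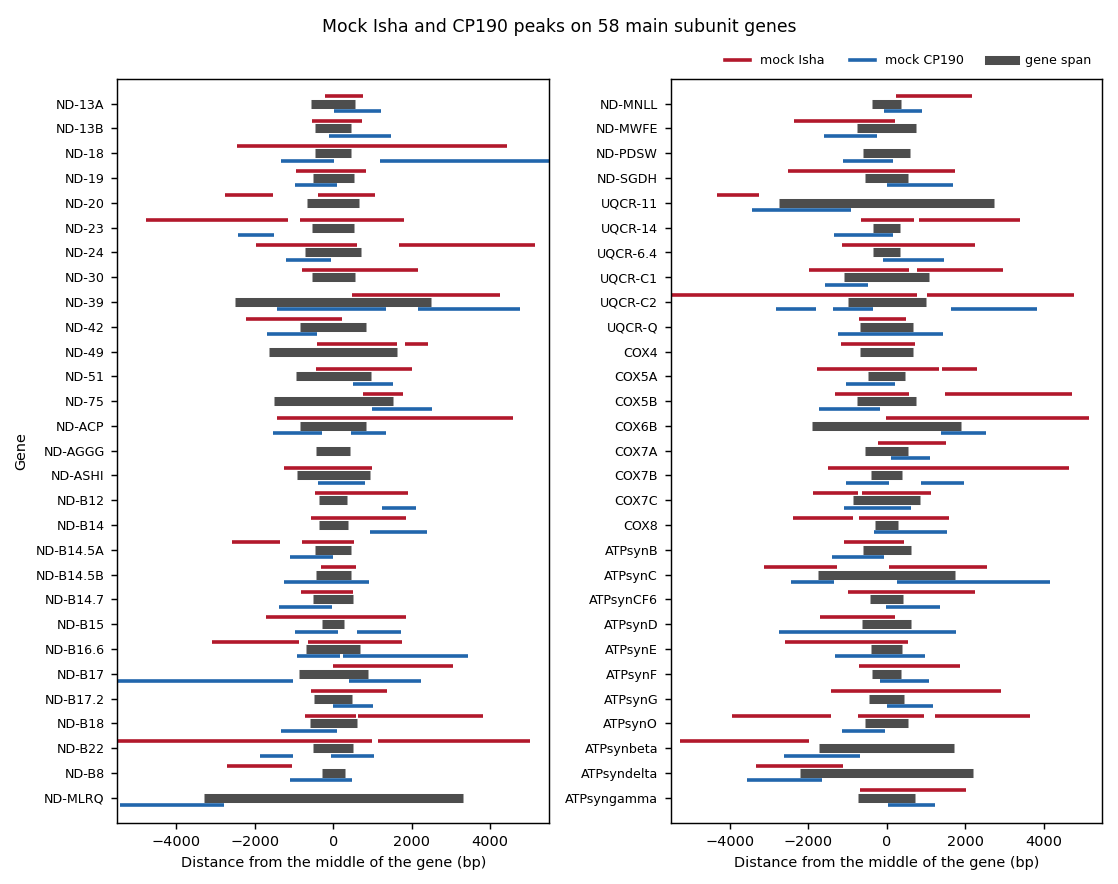
Each row is a main subunit gene, drawn as a grey bar centred on its middle, with mock Isha peaks in red above it and mock CP190 peaks in blue below it; the horizontal axis is distance from the middle of the gene in bp and is clipped at its limits, and ND-15, with a span of 41305 bp, is left out. Red lines extend over the whole grey bar in 26 genes, and blue lines do so in 6.

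After knockdown Isha remained at a minority of the subunit genes. Of the 62 with mock Isha 23 also had a knockdown peak (37.1%, 26.2 to 49.5%), against 29.4% of all genes with mock Isha, and no member had Isha after knockdown alone. Among the main subunit genes it was 21 of 56 (37.5%, 26.0 to 50.6%). Genes of like length kept Isha in 30.9% of cases and genes with peaks of like width in 32.3%. Each of these values lies inside the intervals, so the share kept was not distinguishable from that of other genes.

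By complex, main subunit genes that kept Isha numbered 13 of 31 in complex I, 3 of 6 in III, 3 of 8 in IV and 2 of 11 in V (18.2%, 5.14 to 47.7%). The intervals of the complexes overlapped. Within complex I, 5 of the 7 core genes kept it (71.4%, 35.9 to 91.8%) and 8 of the 24 accessory genes that had it (33.3%, 18.0 to 53.3%), intervals that overlap in a split made after the values were seen. Of the core genes, ND-75 and ND-49 had Isha in mock cells only.

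The 5 core genes that kept Isha had it on the gene span in both treatments. At ND-20 (X) the peak ran from 15985826 to 15987002 after knockdown and from 15985765 to 15987214 in mock cells. At ND-30 (3L) it ran from 3158453 to 3161284 after knockdown, against 3158235 to 3161200 in mock cells. At ND-23 (3R) it ran from 15835941 to 15837577 after knockdown, against 15835732 to 15838377 in mock cells. No knockdown peak within 1 kb of ND-23 overlapped its second mock peak, at 15831812 to 15835425. At each of these 3 genes the knockdown peak overlapped the mock peak. ND-24 (X) had 17630660 to 17633564 after knockdown, against 17630839 to 17633393 in mock cells. No knockdown peak within 1 kb of ND-24 overlapped its second mock peak, at 17634488 to 17637947. ND-51, the gene of the subunit that binds NADH, had 6061360 to 6063731 after knockdown, against 6061356 to 6063800 in mock cells (2L). At these genes it was thus the same site that was called again.

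At other genes the kept peak lay beside the gene. For 17 of the 21 main subunit genes with Isha after knockdown the peak was on the span, and for 4 (ND-42, ND-B22, UQCR-14 and UQCR-C1) it was only within 1 kb. The midpoint of a knockdown peak lay inside 9 of the 21. At COX7B and ND-B16.6 the knockdown peak took in only 40 and 104 bp of the span. At ND-42 (3R) it ended at 22027313, short of the gene start at 22027709, where the mock peak had run from 22026323 to 22028782. At UQCR-14 (X), the mock peak over the gene at 16285998 to 16287336 was not called after knockdown, and the one beside it was, at 16287597 to 16289987, against 16287477 to 16290040 in mock cells. UQCR-C1 (3R), which encodes the other core protein of complex III, likewise kept the peak at its side, at 14892955 to 14894178 after knockdown, against 14892074 to 14894269 in mock cells. UQCR-6.4 (2R) kept a peak over most of its span, at 17572173 to 17574631 after knockdown, against 17571297 to 17574687 in mock cells.

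In complex IV, COX5B (2L) had 2 peaks in each treatment, at 6557169 to 6558871 and 6560079 to 6561893 after knockdown and at 6557231 to 6559119 and 6560048 to 6563290 in mock cells. COX8 (3L) had 2 mock peaks, and that over its span was called again, at 21538719 to 21540596 after knockdown, against 21538446 to 21540753 in mock cells. In complex V, ATPsynE (3R) had 14326658 to 14327804 after knockdown, against 14324754 to 14327894 in mock cells, and ATPsyngamma (3R) had 29747879 to 29749282 after knockdown, against 29747756 to 29750449 in mock cells. At ATPsynE and ATPsyngamma the kept peak was called over less of the surroundings of the gene. The catalytic subunit gene ATPsynbeta and the ring gene ATPsynC had no Isha peak after knockdown.

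By the widest mock Isha peak within 1 kb, genes that kept Isha had had wider peaks. That peak was not always the one called again. At ND-23, ND-24, ND-B18 and UQCR-C1 the knockdown peak within 1 kb overlapped only a narrower mock peak, of 2646, 2555, 1304 and 2196 bp. At ND-23, ND-24 and ND-B18 the wider mock peak ran on beyond 1 kb, where knockdown peaks were not read by gene. The widest mock Isha peak had a median of 2966 bp at the 21 genes that kept the mark (1450 to 6875 bp) and 2039 bp at the 35 that lost it (906 to 7072 bp), and the ranges overlapped. Of the 28 genes whose widest peak exceeded 2503 bp, 14 kept Isha, against 7 of the other 28. Peak by peak, 26 of the 78 mock Isha peaks near main subunit genes overlapped a knockdown peak at any distance from the gene (33.3%, 23.9 to 44.4%), against 18.9% of all mock Isha peaks. That comparison is not matched on width, and with width matched by gene, as above, the share kept was not distinguishable from that of other genes. Knockdown width over mock width had a median of 0.814 in the overlapping pairs, against 0.826 for all Isha pairs.

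**Figure D4:**
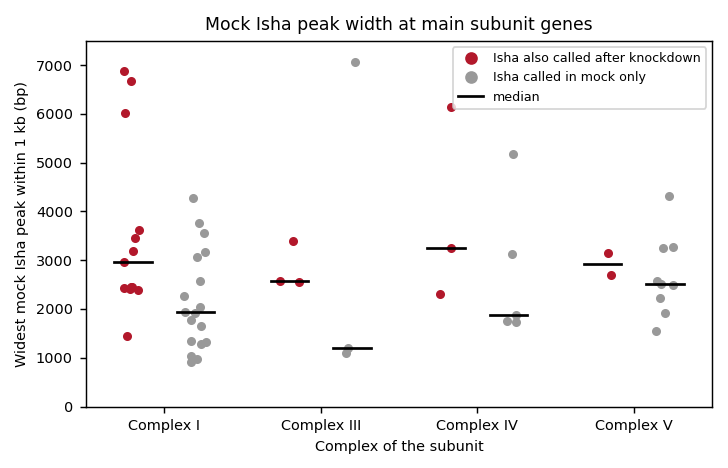
Points are the 56 main subunit genes with mock Isha, by complex, and the vertical axis is the width in bp of the widest mock Isha peak within 1 kb; genes whose Isha was also called after knockdown are red and stand left of those called in mock cells only, in grey, and black lines are medians. The red points start at 1450 bp and the grey ones at 906 bp, and the widest peak of all, 7072 bp in complex III, is grey. A red point is not always the peak that was called again.

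CP190 was still called at the subunit genes after Isha knockdown. All 58 members with mock CP190 had it after knockdown, against 96.9% of all genes with mock CP190, and 3 more had it only after knockdown. Those 3 were ND-20 (X, 15986472 to 15987358), COX4 (2L, 19958253 to 19959201) and the copy ND-49L (3R, 25360501 to 25361383). Peak by peak, 70 of 71 mock CP190 peaks near main subunit genes overlapped a knockdown peak (98.6%, 92.4 to 99.8%), against 93.8% of all.

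The CP190 mark of ND-23 rested on different peaks in the treatments, at 15836682 to 15837763 after knockdown and at 15834164 to 15835074 in mock cells (3R). A knockdown peak also overlapped that mock peak but lay beyond 1 kb of the gene, so the mock site was not lost. ND-30 and ND-49 had Isha without CP190 in mock cells and gained none after knockdown. Overlapping CP190 peaks near main subunit genes were narrower after knockdown, with a median width ratio of 0.878, against 0.853 for all CP190 pairs. After knockdown 20 main subunit genes had both proteins (33.9%), against 13.7% of all genes. CP190 without Isha was at 36 of them (61%), against 49.3% of all genes, where it was also the most common state.

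Su(Hw) was at few members, and the mark was lost at 4 of the 9. Of the 9 with mock Su(Hw), 5 also had it after knockdown (55.6%, 26.7 to 81.1%), against 88.2% of all genes with mock Su(Hw). Counted by overlap of a mock peak with a knockdown peak, 6 members kept it. The gene of an accessory complex I subunit, ND-15 (2L, 114726 to 156030), is by far the longest member, and its 3 Su(Hw) peaks were all kept, at 118521 to 119640, 130340 to 132256 and 137708 to 138819 after knockdown and at 118533 to 119844, 130063 to 132156 and 137635 to 138887 in mock cells. ND-B17 (2L) kept its peak as well, at 15750675 to 15751924 after knockdown, against 15750752 to 15752287 in mock cells.

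The 4 genes that lost Su(Hw) were UQCR-Q (3L, 17474461 to 17475239), ATPsynC (3R, 31220240 to 31220929), ATPsynD (3R, 19096089 to 19096893) and COX8 (3L, 21540120 to 21542659). The first 3 of these mock peaks were narrow, with 779, 690 and 805 bp, against a median of 1511 bp in the mock list. At COX8 a knockdown peak overlapped the mock peak but lay beyond 1 kb, so the mark, not the site, was lost. COX7A had Su(Hw) only after knockdown (3R, 8337084 to 8339274). The copies ND-49L, UQCR-6.4L and ATPsynepsilonL kept it.

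Of the 6 members with Su(Hw) and Isha in mock cells 2 kept Su(Hw), and of the 3 without Isha all 3 did. Over all genes the shares were 84.9% of 1098 with mock Isha and 90% of 2047 without. With 6 and 3 genes, 1 of them COX8 with its site kept, no difference is read from the members.

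Mod(mdg4) was at 2 members. ND-15 had 1 peak after knockdown, at 130597 to 131715, and 2 in mock cells, at 130734 to 131855 and 137756 to 138796. ND-B17 had a peak only after knockdown, at 15750928 to 15751633. The 1 member with mock Mod(mdg4) kept it, against 81.8% of all genes with mock Mod(mdg4). Each of these 4 Mod(mdg4) peaks lay within a Su(Hw) peak of the same treatment.

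Set against its own main gene, a copy had mock Isha less often. The 21 copies have 18 different main genes, since ND-51, COX7A and levy each have more than 1 copy. The main gene had Isha for all 21 copies, and the copy had it in 6. The main gene had CP190 for 17 copies, of which 4 had it too. None of the 6 copies in complex I and none of the 3 in complex III had Isha, while 5 of 8 in complex IV and 1 of 4 in complex V did.

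Of the 6 copies with Isha, 3 lie beside their main gene. COX5BL is 123 bp from COX5B and has the same 2 Isha peaks within reach in each treatment. COX7CL is 282 bp from COX7C, and 1 of its 2 mock Isha peaks is shared with COX7C. The copy kept the other, at 10051104 to 10052401 after knockdown, against 10051206 to 10052475 in mock cells (2R). COX7AL is 2626 bp from COX7A and shares none, with its own mock Isha peaks at 8342475 to 8343996 and 8344149 to 8346306 (3R), and a CP190 peak over its whole span. COX7AL had no Isha peak within 1 kb after knockdown. All 3 copies within 5 kb of the main gene had Isha, against 3 of the other 18. With those 3 left out of the 17 copies whose main gene is a member, mock Isha was near 56 of the 63 other members and 3 of 14 copies, a difference of 67.5 points (39.4 to 82.4).

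The other 3 copies with mock Isha were COX4L (2R, 5352739 to 5355654), whose span is covered whole, ATPsynbetaL (3L, 16099810 to 16101229) and COX7AL2 (2L, 2191429 to 2192706). None of these 3 copies had an Isha peak within 1 kb after knockdown. COX7AL2 also had a CP190 peak along nearly its whole span, 6020 bp after knockdown and 5967 bp in mock cells. ATPsynepsilonL had CP190 without Isha, at 10119532 to 10120921 and 10121356 to 10122088 after knockdown and at 10119129 to 10121151 in mock cells (3R). It was the only copy with CP190 and Su(Hw) together in mock cells.

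**Figure D5:**
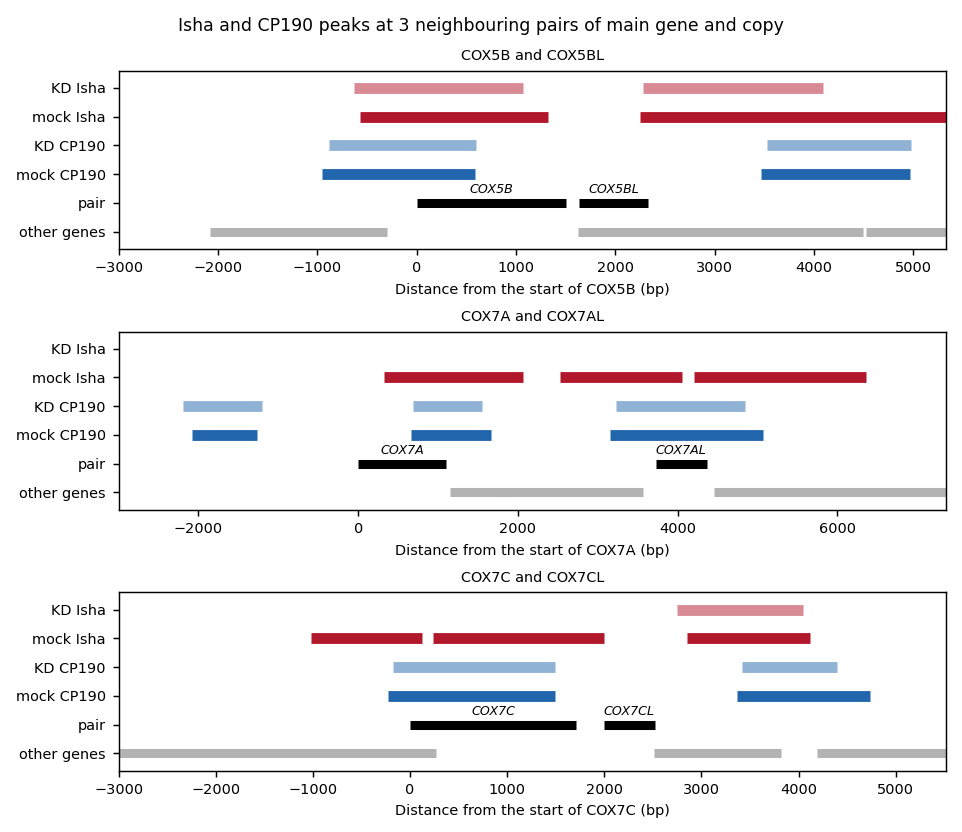
Called peaks around the 3 copies that lie within 5 kb of their main gene are drawn as bars, with knockdown (KD) above mock, the gene pair in black and other genes in grey; the horizontal axis is distance in bp from the start of the main gene. Around COX5B both Isha peaks stay after knockdown, and around COX7C only the outer 1 of the copy does. COX7A and COX7AL have no Isha peak within 1 kb after knockdown, while CP190 is called in both treatments.

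The main subunit genes were spread over all arms. Isha was at all 9 on 2R, 11 on 3R, 12 on X and 2 on chromosome 4 in mock cells, and at 11 of 12 on 2L and 11 of 13 on 3L. Over all genes the share with mock Isha was 44.4% on 2L, 53.9% on 2R, 47.8% on 3L, 47.9% on 3R, 56.3% on X and 38.8% on chromosome 4. Isha was kept at 3 of 11 main subunit genes on 2L, 3 of 9 on 2R, 4 of 11 on 3L, 5 of 11 on 3R and 6 of 12 on X. All genes with mock Isha kept it in 26.9% of cases on 2L, 32.2% on 2R, 34.6% on 3L, 21.4% on 3R and 34.2% on X, and with at most 12 members on an arm no difference between arms is read. On chromosome 4, where ND-49 and ATPsynbeta lie and neither kept Isha, none of the 31 genes with mock Isha did. The mark in mock cells therefore did not come from any single arm.

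Respiratory genes outside the symbol rule gave similar shares with mock Isha. The 12 further structural genes were the complex II genes SdhA to SdhD, cytochrome genes Cyt-c1 and Cyt-c-p, RFeSP, ox, levy, cype, blw and sun. Isha was near 4 of them after knockdown and near 11 in mock cells, against 14.6% and 47.8% for genes of like length. The exception was RFeSP, the iron-sulphur protein gene of complex III. Of 11 genes of the tricarboxylic acid cycle, Isha was near 2 after knockdown, against 18.1%. In mock cells it was near 10, with ScsbetaA the exception, against 60.9%. Of 8 assembly factor genes it was near 1 after knockdown, against 12.9%, and near 7 in mock cells, with sicily the exception, against 41.3%.

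CP190 was near all 12 structural genes after knockdown and near 11 in mock cells, against 56.8% and 55.0% for genes of like length. It was near all 11 cycle genes in both treatments, against 71.0% after knockdown and 68.1% in mock cells. It was near 7 of the 8 assembly factor genes after knockdown, against 50.6%. In mock cells it was near 5 (62.5%, 30.6 to 86.3%), against 49.4%, which lies inside the interval. Among 4 further copies, SdhAL, SdhBL, Cyt-c1L and Cyt-c-d, mock Isha was near 3 (75%, 30.1 to 95.4%) and absent from SdhAL, against 55.5% for genes of like length, also inside the interval.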

How the data were processed

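ChIP-seq libraries of Kc167 cells were made by the authors for 4 antibodies and 2 treatments, 16 immunoprecipitates and 8 inputs. The build dm6 and the tools Picard 2.22.2, SAMtools 1.9 and Bowtie2 2.4.1 are named, without their roles, per the submitters' processing notes. The sources used here name no peak caller, threshold or rule for joining replicates. The authors deposited 8 lists of peak positions with 3 columns and no count, score or signal, so depth is unknown. "SwHw" in the name of a list was read as Su(Hw). Positions are printed counted from 1.

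Gene spans came from RefSeq's table of Release 6 plus ISO1 MT, the assembly of dm6, which gives no strand, exons or sequence; the planned motif search was not run and no sequence was used here. A peak was near a gene at an overlap of at least 1 bp with the span widened by 1 kb. Shares have Wilson and differences Newcombe intervals at 95%. All 13922 genes were weighted to the members' lengths in 10 bins. With 1 list per group there is no test. The members and lists were chosen with earlier results of these data known. Members were named by rule: per complex the widest mock Isha peak and up to 6 genes with Isha in both treatments, main genes without mock Isha, members with Su(Hw) or Mod(mdg4), those whose CP190 mark changed, and copies with a peak. Others were named after their values were seen. All symbols of 3 further gene lists matched the table, and 8 of 13 assembly factors did. Alternatives were other windows, midpoints, gene ends, nearest gene, wider peaks, stricter overlap and 20 or no length bins. Steps were tested on simulated data and run in Python 3.11.15 with NumPy 2.4.6, SciPy 1.17.1 and matplotlib 3.10.9.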

Additional observations from a re-analysis of the deposited data

How the results depend on the processing

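Of the alternatives run, 87 values stayed within the limits set for them and 26 moved. The limits were a set ratio to the reported count, the Wilson interval of a share and the Newcombe interval of the difference. Counts and shares have no direction to turn. The difference between main genes and copies stayed positive in every setting. With each peak given to its nearest gene only, the members with a peak numbered 9 after knockdown and 36 in mock cells for Isha, 37 for mock CP190 and 4 for mock Su(Hw). With a peak midpoint within 500 bp of a gene end they numbered 12 for knockdown Isha, 3 for knockdown and 4 for mock Su(Hw), and 1 for knockdown and 0 for mock Mod(mdg4). With a peak on the span itself, knockdown Su(Hw) was at 3 genes and kept at 3. Within 2 kb, mock Mod(mdg4) was at 2 genes, Su(Hw) was kept at 8 and Mod(mdg4) at 2. With only the wider peaks of each list, mock Su(Hw) was at 5. Without ND-15, an alternative added after seeing the data, Mod(mdg4) was at 1 gene after knockdown and 0 in mock cells. Isha and CP190 peaks overlapping by 50% reciprocally were found at 25 members. Without length bins the shares of all genes were 14.8% for Isha, 63.0% for CP190, 20.9% for Su(Hw) and 7.71% for Mod(mdg4) in the knockdown lists, against 49.7%, 61.0%, 22.6% and 8.23% in the mock lists. The cause of these shifts was not tested.

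The share with mock Isha among 63 members, minus that among the 17 copies whose main gene is a member, was 49.3 to 54.7 points with other windows, with wider peaks only and with nearest genes. Leaving out a replicate and a stricter peak threshold were not run, because each list was read as joining both replicates and holds no score. No paired analysis was possible because there is 1 list for each group and none for a single replicate. Peak height, depth and strand were not used here, so a weaker peak and an absent one cannot be told apart.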
